A study of Mus musculus with 16 samples.

Results

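The type I interferon response genes examined here are 36 genes chosen by name: the rows of the count table whose Ensembl identifier carries 1 of 36 listed symbols in the GENCODE annotation of the mouse build GRCm38. All 36 were found among the 29730 genes of the table. The count table came from RNA sequencing of the tibialis anterior, a muscle at the front of the lower leg, in 16 male mice of strain C57BL/6N aged 7 weeks. There were 4 groups of 4 mice. WT_PBS and WT_ASO were wild type and received phosphate-buffered saline or the antisense oligonucleotide ASO1, respectively, and KO_PBS and KO_ASO were Bin1mck-/- mice treated in the same ways. Bin1 codes for a membrane-bending protein whose loss causes a recessive centronuclear myopathy, and the series title names Dnm2, the gene of the membrane-cutting GTPase dynamin 2, as the target of ASO1. In the names of mouse lines "mck" usually stands for the muscle creatine kinase promoter, which acts in muscle fibres, but the labels do not spell it out. No group is labelled as having received an oligonucleotide without a target, so an effect of lower Dnm2 and an effect of the oligonucleotide itself cannot be told apart. The sources used here give neither the dose nor the schedule, nor which part of Bin1 was deleted.

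Type I interferons are secreted proteins that cells release after they sense foreign or misplaced nucleic acid. They bind a receptor coupled to the kinases JAK1 and TYK2, and the signal reaches the nucleus as a complex that holds STAT2 and IRF9 and binds a DNA motif, the interferon-stimulated response element (ISRE), upstream of many genes. The induced proteins sense RNA, block translation, modify other proteins with ISG15 or act at membranes, and some of them, such as the guanylate-binding proteins, respond more strongly to interferon gamma, which acts through another motif, the GAS element. In muscle, this response is best known from inflammatory myopathies such as dermatomyositis.

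Total counts ran from 27591900 to 40862854 per sample. Bin1 was low in both knockout groups, at 40.8 to 47.7 CPM (counts divided by library size and multiplied by 1000000, with sizes scaled by edgeR's trimmed mean of M values, TMM) in KO_PBS and 31.7 to 42.9 in KO_ASO against 463 to 620 in the wild-type samples. Dnm2 fell by 1.13 on the log2 scale in WT_ASO against WT_PBS (edgeR adjusted P value 0.000396) and by 1.34 in KO_ASO against KO_PBS (adjusted P value 1.72e-05). Summed skeletal muscle markers ran from 121941 to 215731 CPM, and markers of T and NK, B and plasmacytoid dendritic cells each summed to less than 1 CPM in every sample. Of the 36 members, 35 passed the filter on low counts and were tested among 14960 genes. The 2-5A synthetase gene Oas3 did not, with 0 counts in 2 KO_ASO samples and at most 0.937 CPM elsewhere.

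The letters of the response elements were looked for in the RefSeq windows from 250 bases before to 50 bases after each gene's start (GRCm38.p6). A window was at hand for 27 members, all except Dhx58, Zbp1, Usp18, Oas2, Rtp4, Mx1, Mx2, Parp9 and Parp14. The ISRE core GAAANNGAAA, on either strand and with overlapping matches allowed, was present in 16 of the 27 (59.3%) and in 3.99% of the 27025 genes with a window. With a trailing C, GAAANNGAAAC, it was present in 13 (48.1%) and in 0.944% of all genes. The GAS letters TTCNNNGAA were in 8 members (29.6%) and in 9.55% of all genes. The stretches before the starts of the 4 members of smallest P value in KO_ASO against KO_PBS are shown 5′ to 3′ on the gene's strand, with ISRE core matches in capitals (TTTCNNTTTC is the same core on the other strand). They cover chr19:34640689-34640870 (plus strand) for Ifit1, chr19:34583329-34583528 (plus) for Ifit3, chr4:156200819-156201018 (minus) for Isg15 and chr3:151749961-151750110 (minus) for Ifi44.
Ifit1: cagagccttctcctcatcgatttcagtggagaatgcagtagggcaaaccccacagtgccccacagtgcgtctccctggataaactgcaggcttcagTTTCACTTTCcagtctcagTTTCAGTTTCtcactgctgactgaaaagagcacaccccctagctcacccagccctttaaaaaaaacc
Ifit3: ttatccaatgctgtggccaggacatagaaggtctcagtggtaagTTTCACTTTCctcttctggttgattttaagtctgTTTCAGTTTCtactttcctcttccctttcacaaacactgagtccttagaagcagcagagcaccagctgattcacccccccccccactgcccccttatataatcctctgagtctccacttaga
Isg15: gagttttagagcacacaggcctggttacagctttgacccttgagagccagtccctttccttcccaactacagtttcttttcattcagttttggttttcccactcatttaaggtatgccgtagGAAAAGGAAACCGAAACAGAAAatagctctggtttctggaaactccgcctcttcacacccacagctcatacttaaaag
Ifi44: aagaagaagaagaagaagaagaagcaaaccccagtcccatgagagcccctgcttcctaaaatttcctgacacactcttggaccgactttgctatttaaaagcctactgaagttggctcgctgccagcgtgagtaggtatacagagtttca
Ifit1 held matches at positions -104 and -85 from the RefSeq start and Ifit3 at -156 and -122, each pair on the strand opposite to the gene. Isg15 held 3 overlapping matches at -78, -72 and -66, and Ifi44 and Ifit2 held none in the window. A missing match says only that these letters were not found there.

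The 40-base stretches around the first match in the GTPase genes Gbp2, Gbp3, Gbp7 and Igtp and in Bst2 are shown because their levels moved with particular libraries, as described further on. They lie at chr3:142620589-142620628, chr3:142559984-142560023, chr3:142530268-142530307 and chr11:58199507-58199546 on the plus strand, and at chr8:71537578-71537617 on the minus strand.
Gbp2: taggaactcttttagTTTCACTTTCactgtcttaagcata
Gbp3: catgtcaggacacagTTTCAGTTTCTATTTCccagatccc
Gbp7: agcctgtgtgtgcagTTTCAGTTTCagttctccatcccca
Igtp: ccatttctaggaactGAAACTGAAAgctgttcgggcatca
Bst2: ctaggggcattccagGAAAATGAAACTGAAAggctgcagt
Counted from the RefSeq start, the first matches of Gbp2, Gbp3 and Gbp7 stood at -59, -45 and -53 on the strand opposite to the gene. Those of Igtp and Bst2 stood at -34 and -130 on the gene's own strand. In GENCODE the Gbp2 gene starts earlier, so that 27 of the 40 bases shown for it, the match included, lie within the gene.

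The 35 tested genes were at low to moderate levels in this muscle, and Oas3 was close to the detection limit. Per length, as CPM per kilobase of exon, Ifitm3 had the highest mean level in WT_PBS (34.9), and Bst2 (10.005), Ifi35 (8.66), Igtp (5.18) and Trim25 (4.53) followed. Ifitm3 codes for a protein that blocks entry of viruses at endosomes, Bst2 for tetherin, which holds budding virus at the cell surface, and Trim25 for a ubiquitin ligase that activates the RNA sensor RIG-I. At the other end stood Oas3 (0.0116), Mx1 (0.0724), Zbp1 (0.103) and Mx2 (0.193). The Ifit genes, whose products bind foreign RNA and stop its translation, lay between, with 0.703 for Ifit1, 1.26 for Ifit2 and 1.45 for Ifit3. The 3 Ifit genes are neighbours within 99.3 kb on chromosome 19, and Gbp7, Gbp3 and Gbp2 lie within 108 kb on chromosome 3, so members of these clusters share a locus.

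The first comparison asked whether loss of Bin1 alone changed these genes. In KO_PBS against WT_PBS, 0 of 35 members were differentially expressed (edgeR adjusted P value under 0.05), where 12.6% of all genes tested were. At an unadjusted P value under 0.05 there were 2 members, and 27.3% of all genes. The median log2 fold change (log2FC) of the members was -0.03 and that of all genes -0.01. The member median rested on single libraries: it was -0.14 without KO_PBS replicate 4, where 9 of 35 members were above 0 and 4 had an unadjusted P value under 0.05 (11.4%, against 25.1% of all genes in that fit), and 0.04 without KO_PBS replicate 2. It was also above 0 without KO_PBS replicate 1 or WT_PBS replicates 2 or 3. Without scaling beyond library totals, the median of all genes moved to 0.14, and in that fit Ifitm3 was called. DESeq2 called 0 members and limma-voom 1, Gbp7, where 2478 and 2699 genes were called in all, against 1878 in edgeR.

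Ifitm3, with the smallest P value, stood at 24.04, 21.5, 26.2 and 22.7 CPM in WT_PBS and at 35.5, 24.5, 29.99 and 36.2 CPM in KO_PBS. The groups overlapped through a single KO_PBS sample, and the log2FC of 0.42 (standard error, SE, 0.152) had an edgeR adjusted P value of 0.0843. It was 0.0377 without KO_PBS replicate 2. Gbp7, a guanylate-binding protein that acts on the vacuoles of intracellular microbes, was lower, with 7.69, 15.98, 7.57 and 13.3 CPM in WT_PBS and 6.07, 5.78, 6.31 and 9.94 CPM in KO_PBS. The WT_PBS values of Gbp7 were spread over more than the difference, and its log2FC of -0.66 (SE 0.278) had an adjusted P value of 0.134. Dtx3l, a ubiquitin ligase that works with PARP9, had 11.3, 11.8, 11.2 and 14.5 CPM in WT_PBS and 16.9, 11.96, 14.2 and 15.1 CPM in KO_PBS (log2FC 0.25, adjusted P value 0.269). Dtx3l and Parp9 overlap on opposite strands and the strand setting of the counting is not given, so reads of the pair may not be told apart.

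The second comparison asked what the oligonucleotide did in knockout muscle. Ifit1, Ifit3 and Ifi44 were higher in KO_ASO than in KO_PBS, by about 2.18, 2.21 and 1.87 fold. These 3 of 35 members passed the threshold upward, against 0.802% of all genes, and 0 passed it downward, against 2.83% of all genes. A further 13 members had an unadjusted P value under 0.05 only, 12 of them higher, which makes 15 higher (7.35% of all genes) and 1 lower (10.3%). The log2FC was above 0 for 31 of 35 members and for 51.9% of all genes, with medians of 0.32 and 0.01. With library totals alone the count above 0 was 27, as Trim25, Parp9, Eif2ak2 and Ddx58 changed sign.

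Ifit1 (chr19:34640871-34650009) was at 1.76, 1.502, 1.46 and 2.05 CPM in KO_PBS and at 3.80, 3.64, 2.91 and 4.42 CPM in KO_ASO. Every KO_ASO sample lay above every KO_PBS sample. Its log2FC was 1.12 (SE 0.208, edgeR adjusted P value 0.00737), and the exact permutation test gave 0.0286, the smallest value possible with 4 against 4 samples. Ifit3 (chr19:34583531-34588731) was at 1.90, 1.27, 1.78 and 2.81 CPM in KO_PBS and 4.89, 4.06, 3.81 and 4.49 CPM in KO_ASO, again without overlap. The log2FC of Ifit3 was 1.15 (SE 0.225, adjusted P value 0.00998). Ifi44 (chr3:151730922-151749960), a cytoplasmic protein induced by interferon, was at 1.68, 1.16, 1.76 and 2.42 CPM in KO_PBS and 3.29, 3.23, 2.70 and 3.97 CPM in KO_ASO. The groups did not overlap, and the difference was 0.91 on the log2 scale (SE 0.231, adjusted P value 0.0406). These are genes of modest counts, from 41 reads for Ifi44 in its lowest sample to 180 for Ifit3 in its highest. Bst2 was at 7.83, 8.58, 9.996 and 9.94 CPM in KO_PBS and 11.7, 12.5, 12.7 and 22.7 CPM in KO_ASO, with replicate 4 far above the others (log2FC 0.71, SE 0.246, edgeR adjusted P value 0.127). Groups without overlap, with KO_ASO higher, were found for 4 members, these 3 and Bst2, and for 4.04% of all genes.

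The calls of Ifit1 and Ifit3 held when any single library was left out, with the highest adjusted P values at 0.0262 and 0.0408. That of Ifi44 did not: it was lost without WT_PBS replicates 1 or 4, KO_PBS replicates 1, 2 or 3, or any single KO_ASO replicate, with adjusted P values from 0.0507 to 0.118. KO_ASO replicates 1 and 4 were the highest of their group on average over the members. Without these 2 libraries together, an alternative chosen after seeing the data, 0 members were called and 162 genes in all. Ifit1 and Ifit3 then had log2FC values of 0.95 and 1.02 with adjusted P values of 0.0866 and 0.0928, and Ifi44 0.76 with 0.21.

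**Figure D1:**
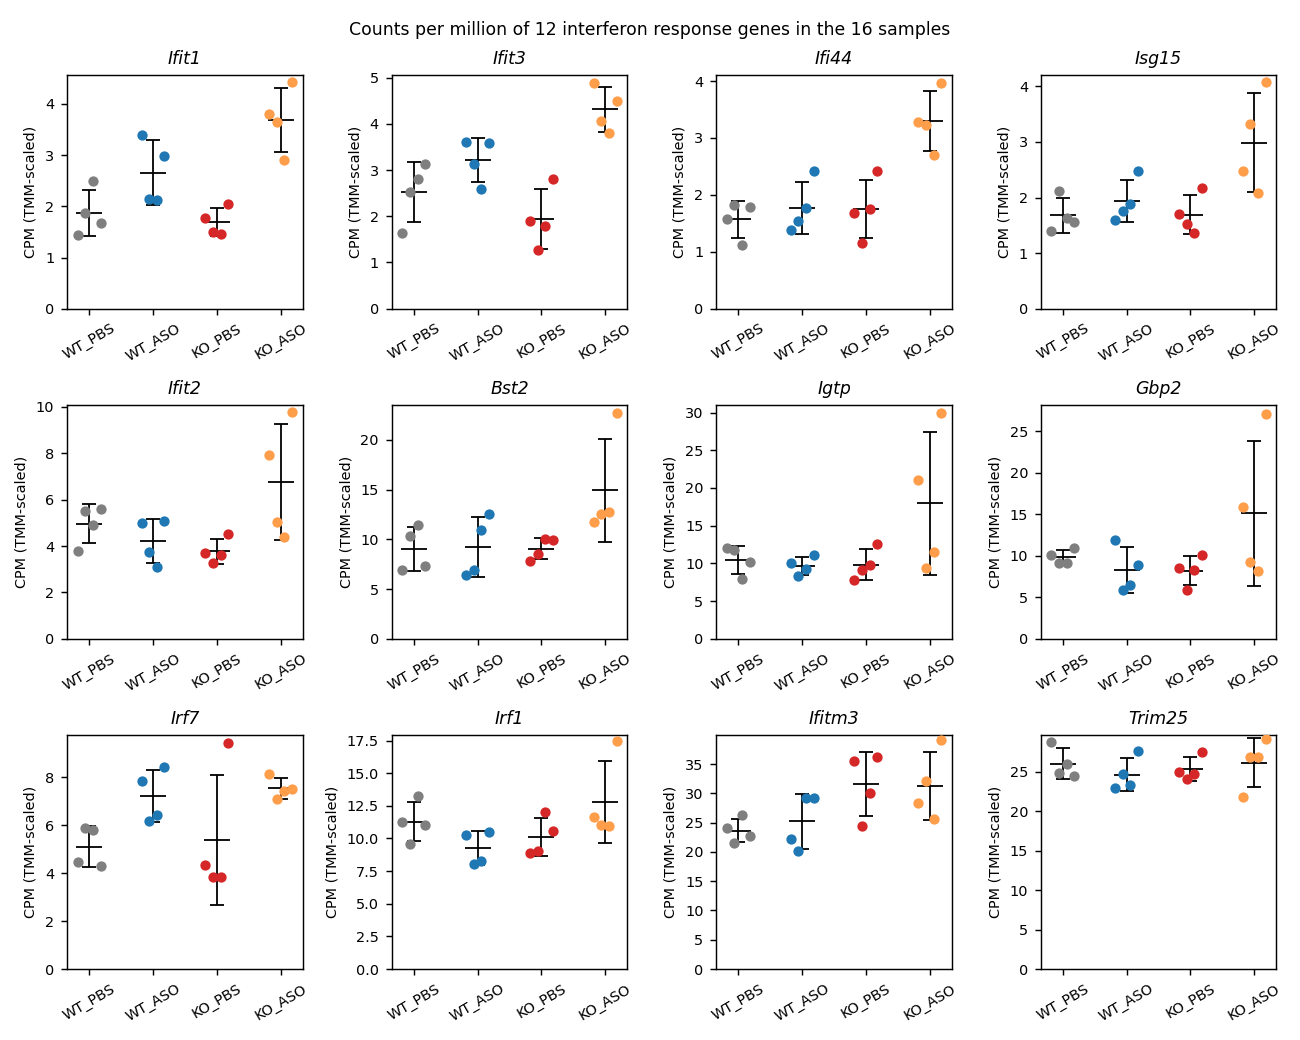
CPM (vertical axis, TMM-scaled, starting at 0) of 12 interferon response genes in the 4 groups, where each point is 1 mouse and the bars are the mean and SD. For Ifit1, Ifit3 and Ifi44 all KO_ASO points lie above all KO_PBS points, while for Igtp and Gbp2 the KO_ASO group splits into 2 high and 2 low samples.

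Isg15 and Ifit2 were next to the threshold. Isg15, the ubiquitin-like modifier itself, was at 1.71, 1.53, 1.37 and 2.17 CPM in KO_PBS and 2.47, 3.32, 2.08 and 4.08 CPM in KO_ASO. The groups overlapped by 1 pair of samples, and the log2FC of 0.81 (SE 0.225) had an edgeR adjusted P value of 0.0546. It was 0.0493 without WT_ASO replicate 4 and 0.0412 without KO_ASO replicate 3. Ifit2 was at 3.69, 3.26, 3.61 and 4.54 CPM in KO_PBS and 7.90, 5.05, 4.40 and 9.76 CPM in KO_ASO, where replicates 1 and 4 were high and replicate 3 lay within the KO_PBS range. Its log2FC was 0.84 (SE 0.232, adjusted P value 0.0547), and 0.0338 was the adjusted P value without KO_ASO replicate 3.

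By role, the IFIT and 2-5A synthetase group had 2 of 6 tested members called higher and a median log2FC of 0.53, and the PARPs and other induced proteins had 1 of 5 (Ifi44) and a median of 0.31. In the other 5 roles 0 were called, and the median log2FC was 0.69 for the 7 dynamin-like and immunity-related GTPases, 0.46 for the 4 membrane and lipid effectors, 0.44 for the 4 genes of the ISG15 system, 0.33 for the 4 transcription factors and 0.13 for the 5 sensors and their regulators. Trim25, the most abundant sensor-related gene per length, was at 25.0, 24.1, 24.7 and 27.5 CPM in KO_PBS and 21.8, 26.9, 26.9 and 29.2 CPM in KO_ASO. The difference was smaller than the spread within either group (log2FC 0.05, 95% interval -0.15 to 0.24). Ifi35, whose product pairs with the interferon-induced protein NMI, was the 1 member lower at an unadjusted P value under 0.05. It was at 18.4, 14.3, 17.7 and 17.6 CPM in KO_PBS and 12.7, 11.98, 14.4 and 16.3 CPM in KO_ASO, which overlapped (log2FC -0.30, SE 0.124, adjusted P value 0.203).

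In 5 of the 7 GTPases, Igtp, Gbp2, Gbp3, Gbp7 and Irgm1, KO_ASO replicates 1 and 4 were the highest samples of their group, and in Mx1 and Mx2 they were not. Igtp, an immunity-related GTPase that coats pathogen vacuoles, was at 7.77, 9.12, 9.85 and 12.6 CPM in KO_PBS and at 21.0, 9.40, 11.49 and 29.9 CPM in KO_ASO. Replicates 1 and 4 of KO_ASO were above every other sample of the series, and replicates 2 and 3 were within the KO_PBS range. Gbp2 had the same 2 high samples, at 15.9 and 27.1 CPM, while the other two were at 9.27 and 8.13 CPM against 5.92 to 10.1 CPM in KO_PBS. Gbp3 was at 12.3 and 20.8 CPM in these samples and at 6.36 and 6.23 CPM in replicates 2 and 3, against 4.19 to 7.67 CPM. The log2FC values of Igtp (0.87), Gbp3 (0.89) and Gbp2 (0.87) were close to those of Ifi44 and Isg15, but the edgeR adjusted P values were 0.105, 0.137 and 0.147. Without KO_ASO replicate 2, that of Igtp was 0.0343, and without replicates 1 and 4 its log2FC was 0.09. Irgm1, another immunity-related GTPase, was at 19.4 to 21.2 CPM in KO_PBS and 18.6 to 27.9 CPM in KO_ASO (log2FC 0.15), and Mx1 was low, at 0.0639 to 0.311 CPM in KO_ASO. Igtp overlaps Irgm2 on the same strand, so reads in the overlap may have been left out.

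**Figure D2:**
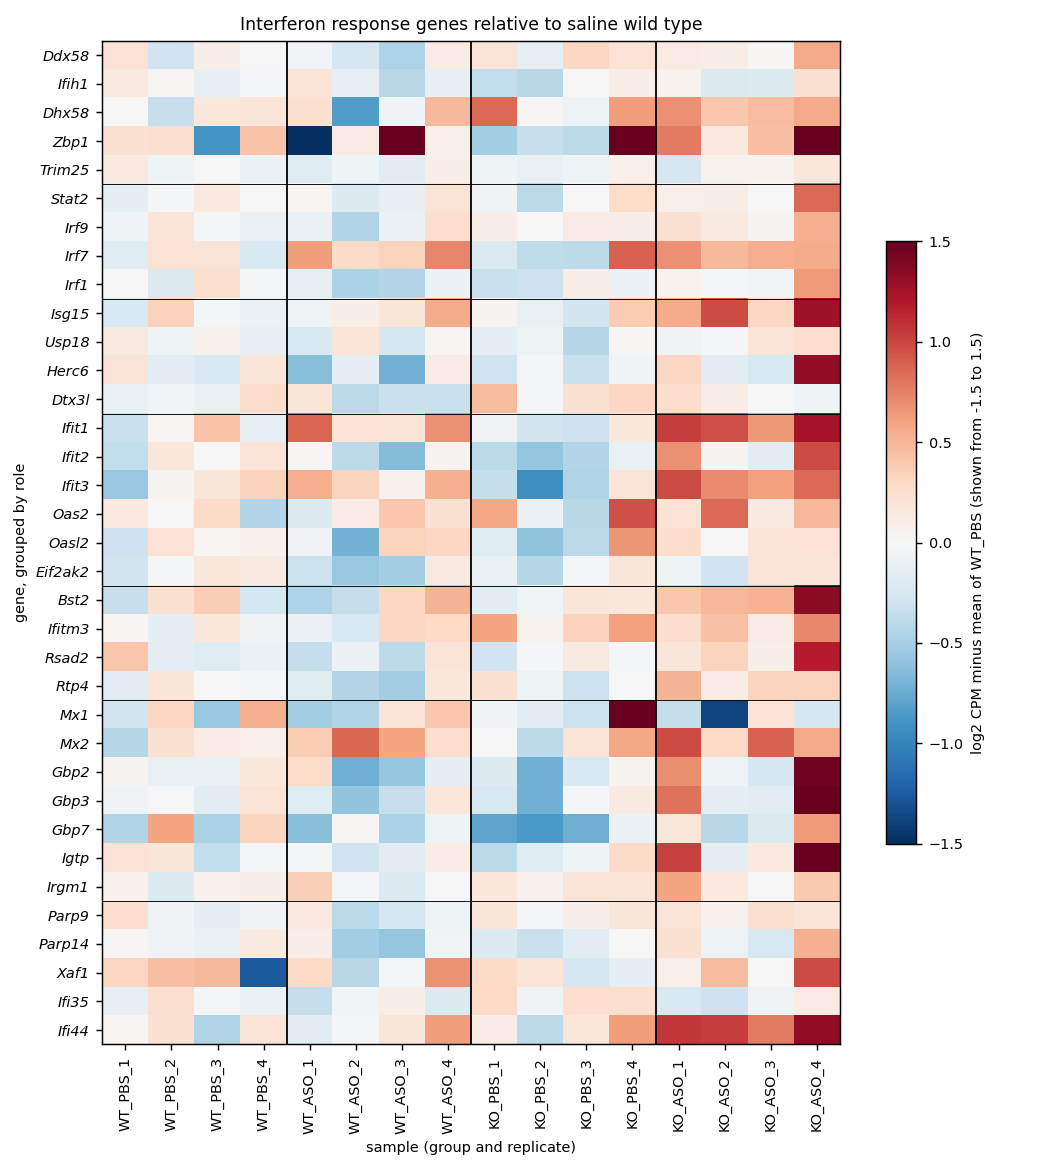
Log2 CPM minus the mean of WT_PBS (colour, cut at -1.5 and 1.5) for the 35 tested genes in rows by role and the 16 samples in columns. The Ifit1, Ifit3 and Ifi44 rows are above the WT_PBS mean in all 4 KO_ASO samples, and the Gbp2, Gbp3 and Igtp rows stand out in KO_ASO replicates 1 and 4.

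Averaged over the 35 members, the log2 distance from the WT_PBS mean was 0.35 ± 0.27 (SD, n = 4) in KO_ASO, -0.02 ± 0.25 in KO_PBS and -0.04 ± 0.17 in WT_ASO. The 4 KO_ASO samples were at 0.38, 0.15, 0.16 and 0.72. In each of the 4 groups replicate 4 was the sample that was highest for the most members, with 24 of 35 in KO_ASO, 24 in KO_PBS, 19 in WT_ASO and 10 in WT_PBS. Without KO_ASO replicate 4, the members with an unadjusted P value under 0.05 in KO_ASO against KO_PBS dropped from 16 (45.7%, against 17.7% of all genes) to 8 (22.9%, against 20.5% of all genes in that fit), and the count was 10 without KO_PBS replicate 1 (28.6% against 12.9%). The median log2FC of all 35 members was 0.16 without KO_ASO replicate 4, in place of 0.32. Without KO_ASO replicates 1 and 4 together there were 5 members under 0.05 (14.3%, against 15.1% of all genes), and the median of all 35 was 0.09. In both fits without KO_ASO replicate 4 the share of members, with both directions pooled, was near that of all genes. These shares are not split by direction. Without replicates 1 and 4, Ifit1, Ifit3, Ifi44 and Isg15 were the higher members under 0.05 and Ifi35 the lower one. That pair of libraries was picked for being highest over these same members, so a smaller effect was to be foreseen there.

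The third comparison asked what the oligonucleotide did in wild-type muscle. In WT_ASO against WT_PBS edgeR called 0 of 35 members, against 0.00668% of all genes (1 gene). DESeq2 and limma-voom also called 0 members, with 35 genes and 1 gene called in all. At an unadjusted P value under 0.05 there were 2 members, Ifit1 and Mx2, both higher, and 6.45% of all genes. The log2FC was above 0 for 14 of 35 members and for 51.0% of all genes, with a member median of -0.08. Without WT_ASO replicate 4, 9 of 35 were above 0 and the median was -0.16. The median was -0.04 without WT_ASO replicate 2 and -0.05 without WT_PBS replicate 2. The 2 members under 0.05 were 0 without WT_PBS replicate 1 (against 6.42% of all genes) or replicate 4 (against 3.67%), and 4 without WT_ASO replicate 1 (11.4% against 6.96%).

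Ifit1 was at 1.43, 1.86, 2.49 and 1.68 CPM in WT_PBS and 3.40, 2.14, 2.13 and 2.97 CPM in WT_ASO. The ranges overlapped, and the log2FC was 0.51 (SE 0.209, edgeR adjusted P value 0.744). Mx2, which GENCODE annotates as a polymorphic pseudogene and which belongs to the antiviral Mx GTPases, was at 0.497, 0.819, 0.752 and 0.727 CPM in WT_PBS and 0.916, 1.30, 1.06 and 0.834 CPM in WT_ASO, from 17 reads upward over the series. Irf7, the transcription factor that amplifies interferon production, was at 4.45, 5.88, 5.78 and 4.31 CPM in WT_PBS and 7.82, 6.16, 6.41 and 8.42 CPM in WT_ASO. Mx2 and Irf7 were the members whose WT_ASO values all lay above WT_PBS, where 1.80% of all genes did so. Their log2FC values of 0.56 and 0.50 had adjusted P values of 0.767 and 0.784. Irf7 overlaps Phrf1 on the opposite strand.

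Members described above in knockout mice had these levels in wild-type mice, whether or not they passed the test in knockout mice. Ifit3 was at 1.64, 2.53, 2.80 and 3.13 CPM in WT_PBS and 3.60, 3.12, 2.58 and 3.59 CPM in WT_ASO, with a log2FC of 0.35 (95% interval -0.13 to 0.82). Ifi44 was at 1.58, 1.83, 1.12 and 1.78 CPM in WT_PBS and 1.37, 1.53, 1.76 and 2.42 CPM in WT_ASO, with a log2FC of 0.18 (-0.33 to 0.68). Isg15 was at 1.404, 2.12, 1.63 and 1.55 CPM and at 1.60, 1.76, 1.88 and 2.47 CPM, with a log2FC of 0.21 (-0.27 to 0.69). In each of these 3 genes the WT_PBS and WT_ASO ranges overlapped, and each interval held 0. The GTPase Igtp was at 7.96 to 12.02 CPM in WT_PBS and 8.36 to 11.1 CPM in WT_ASO, so that neither wild-type group held samples as high as KO_ASO replicates 1 and 4. Ifitm3 was at 22.3, 20.2, 29.2 and 29.1 CPM in WT_ASO and at 28.4, 32.1, 25.6 and 39.0 CPM in KO_ASO, and its log2FC with the oligonucleotide was 0.09 (-0.23 to 0.42) in wild-type and -0.01 (-0.33 to 0.31) in knockout mice. Trim25 and Ifi35 also had estimates near 0 in wild-type mice, at -0.08 (-0.27 to 0.12) and -0.13 (-0.39 to 0.14). Across all 35 members the log2FC in wild-type mice ran from -0.34 for Gbp7 to 0.56 for Mx2.

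**Figure D3:**
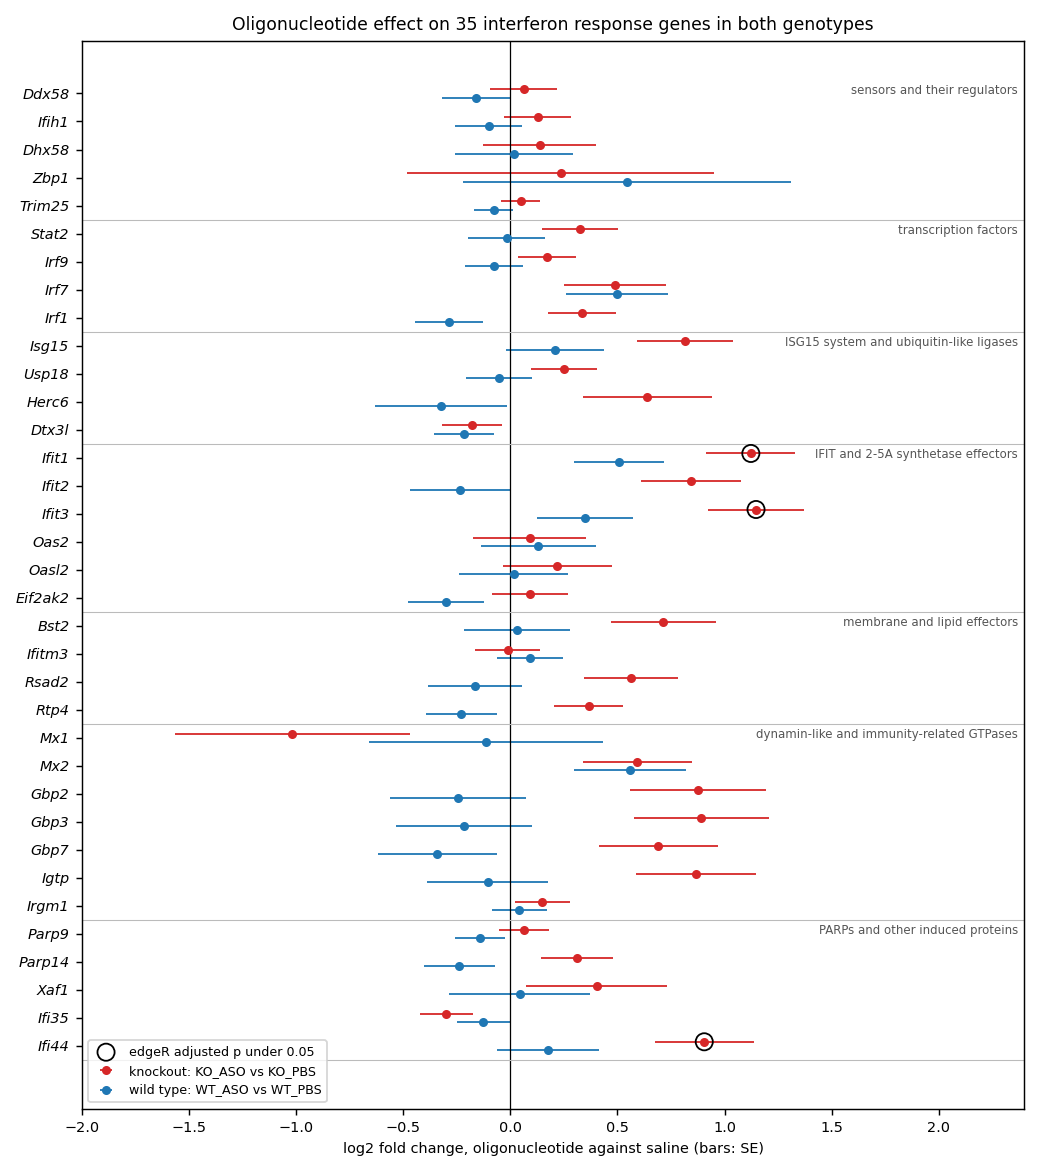
Log2 fold change of the oligonucleotide against saline (horizontal axis, bars are the SE) for 35 interferon response genes in knockout (red) and wild-type (blue) mice, ordered by role, with circles for an edgeR adjusted P value under 0.05. Only Ifit1, Ifit3 and Ifi44 in knockout mice are circled, 31 of 35 red points lie above 0 and 14 of 35 blue points do.

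Whether the oligonucleotide acted alike in both genotypes was tested by the interaction, the log2FC in knockout minus the log2FC in wild-type mice. In edgeR it passed the threshold for 0 of 35 members, against 0.575% of all genes (86 genes). DESeq2 and limma-voom also called 0 members, with 371 and 108 genes called in all. At an unadjusted P value under 0.05 there were 12 members, all with a larger value in knockout mice (5.23% of all genes), and 0 with a smaller one (7.47%). The interaction was above 0 for 29 of 35 members and 50.5% of all genes, and its median was 0.34. The 12 were 34.3% of the members, against 12.7% of all genes in both directions. The count was 5 without KO_ASO replicate 4 (14.3%, against 13.98% of all genes in that fit, again in both directions), with 29 of 35 members above 0 and a median of 0.20. It was 7 without WT_ASO replicate 2 (20.0% against 13.98%) and 0 without KO_ASO replicates 1 and 4 together (against 11.6%), where 28 of 35 members were above 0 with a median of 0.19. That pair was picked after seeing the data for being highest over these members. A lower count was therefore to be foreseen and is no check of stability.

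Ifit2 had the smallest P value, with an interaction of 1.08 (95% interval 0.38 to 1.77, edgeR adjusted P value 0.161). Its level was 3.80, 5.51, 4.93 and 5.62 CPM in WT_PBS and 4.97, 3.73, 3.10 and 5.06 CPM in WT_ASO, so its mean was lower with the oligonucleotide in wild-type mice and higher in knockout mice. Irf1, a transcription factor induced by interferon gamma and by type I interferon, had an interaction of 0.62 (0.15 to 1.096, adjusted P value 0.246). It was at 11.2, 9.61, 13.2 and 11.1 CPM in WT_PBS, 10.3, 8.04, 8.26 and 10.5 CPM in WT_ASO, 8.91, 9.01, 11.995 and 10.6 CPM in KO_PBS and 11.7, 11.1, 10.9 and 17.5 CPM in KO_ASO. The last value stood far above the others. Gbp7, at 6.81, 10.6, 7.59 and 10.03 CPM in WT_ASO and 11.9, 7.93, 9.10 and 16.5 CPM in KO_ASO, had an interaction of 1.03 (0.20 to 1.86, adjusted P value 0.27). In Rtp4, a chaperone of membrane receptors that also binds viral RNA, the interaction was 0.59 (0.11 to 1.08, adjusted P value 0.28), with 3.42, 4.36, 3.84 and 3.76 CPM in WT_PBS, 3.37, 2.81, 2.64 and 4.28 CPM in WT_ASO, 4.49, 3.63, 3.05 and 3.85 CPM in KO_PBS and 5.46, 4.19, 4.85 and 4.84 CPM in KO_ASO. Rtp4 overlaps Masp1 on the opposite strand.

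The intervals show how far the data could tell the genotypes apart. Of 35 members, 12 had an unadjusted 95% interval above 0, 23 had one that held 0, and 17 had one that stayed within 1 log2 unit on either side of 0. Irf7 and Mx2 had estimates near 0, with -0.01 (-0.72 to 0.70) and 0.03 (-0.74 to 0.81). In KO_PBS Irf7 was at 4.36, 3.85, 3.83 and 9.42 CPM and in KO_ASO at 8.15, 7.09, 7.41 and 7.49 CPM. KO_PBS replicate 4 was far above the rest of its group, and without it the log2FC of Irf7 in KO_ASO against KO_PBS was 0.90 (adjusted P value 0.00424) in place of 0.49 (adjusted P value 0.301). The interaction of Irf7 without this sample was 0.41 (SE 0.199, edgeR adjusted P value 0.445), so its estimate near 0 rested on KO_PBS replicate 4. Mx2 was at 0.689, 0.510, 0.805 and 1.06 CPM in KO_PBS and 1.41, 0.863, 1.32 and 1.05 CPM in KO_ASO (log2FC 0.59, adjusted P value 0.229). Among the members called in knockout mice, the interaction was 0.61 for Ifit1 (-0.01 to 1.24), 0.80 for Ifit3 (0.13 to 1.47) and 0.73 for Ifi44 (0.03 to 1.43), with adjusted P values of 0.401, 0.295 and 0.38.

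**Figure D4:**
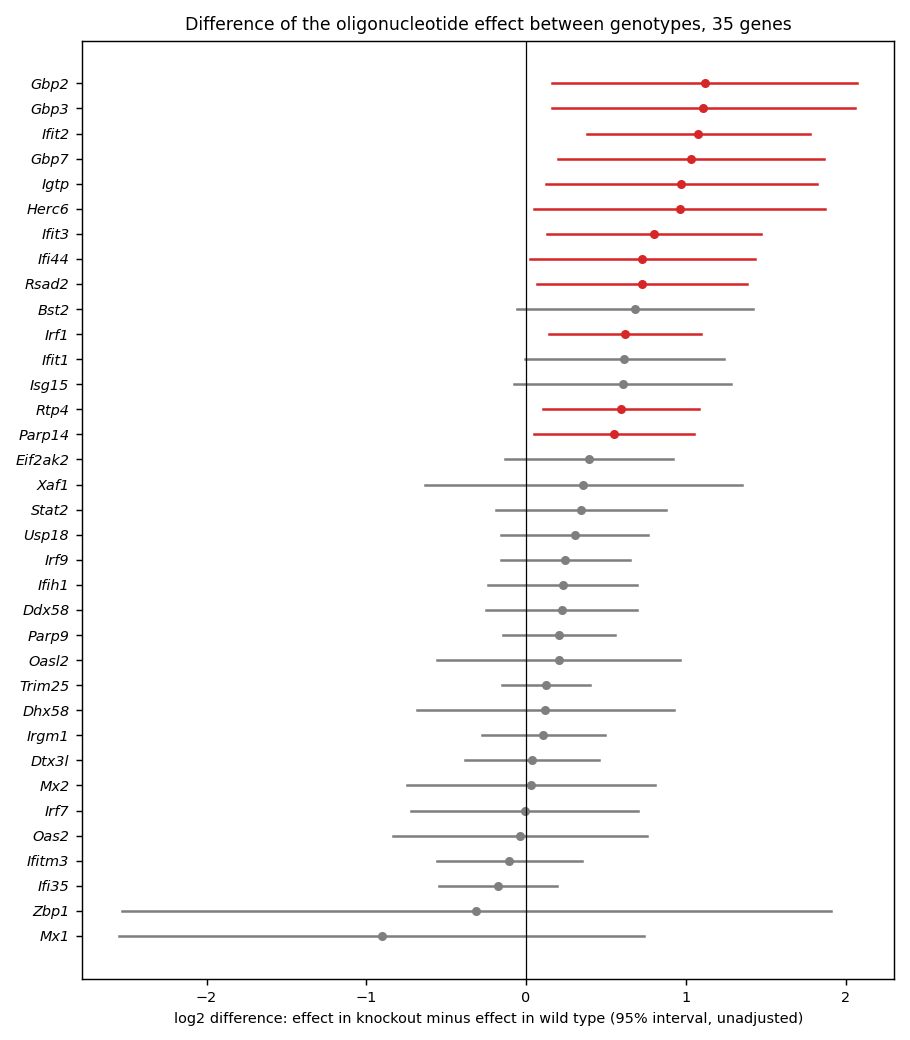
Difference of the oligonucleotide effect, knockout minus wild type, on the log2 scale (horizontal axis) with its unadjusted 95% interval for 35 interferon response genes ordered by size. The 12 intervals drawn in red lie above 0, the 23 in grey hold 0, and 0 lie below it.

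Averaged over both genotypes, which uses all 16 samples, the oligonucleotide effect was called for 1 of 35 members, against 0.421% of all genes. This was Ifit1, whose log2FC was 0.82 (SE 0.147, edgeR adjusted P value 0.0216). The adjusted P value was 0.0554 without WT_PBS replicate 4 and 0.0544 without KO_ASO replicate 1. Ifit3 followed with 0.75 (SE 0.158, adjusted P value 0.0503).

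The remaining comparisons asked how KO_ASO muscle stood against wild-type muscle. These share the KO_ASO samples with the comparison above. In KO_ASO against WT_PBS 0 of 35 members were called (0.0401% of all genes), 12 had an unadjusted P value under 0.05 (8.22%), and in 7 every KO_ASO sample lay above every WT_PBS sample (2.38%). Ifit1 and Ifi44 had the smallest P values, with log2FC values of 0.98 and 1.07 (edgeR adjusted P values 0.129 and 0.149), and were called by DESeq2, while limma-voom called 0. The 12 became 6 without KO_ASO replicate 4 (17.1%, against 7.90% of all genes) and 4 without KO_ASO replicates 1 and 4 together (11.4% against 6.83%). Here and in the comparison with WT_ASO, that pair was picked for being highest over these members, so a lower count was to be foreseen. In KO_ASO against WT_ASO 0 of 35 were called (0.0735%), and 16 had an unadjusted P value under 0.05 (15.1%). With limma-voom 8 did (22.9%, against 13.0% of all genes), and with library totals alone 22 did (62.9% against 16.1%). The 16 became 5 without KO_ASO replicate 4 (14.3%, against 12.2% of all genes), 10 without WT_ASO replicate 2 (28.6% against 11.98%) and 2 without KO_ASO replicates 1 and 4 together (5.71% against 11.1%). There Ifi44 (log2FC 0.89, adjusted P value 0.114) and Rtp4 (0.56, adjusted P value 0.142) led, and both were called by DESeq2.

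The other genes of the pathway were described from separate lists, whose called counts stand against the 12.6% of all genes called in KO_PBS against WT_PBS and the 0.802% higher and 2.83% lower in KO_ASO against KO_PBS. Of 11 ligand genes, the type I interferons and interferon gamma among them, 1 was measured, with a single read summed over the 16 samples, and the other 10 are not analysed here. Of 8 receptor and kinase genes, all tested, Jak2 changed: it fell by 0.97 on the log2 scale in KO_PBS against WT_PBS (edgeR adjusted P value 0.00192) and was higher by 0.78 in KO_ASO against KO_PBS (adjusted P value 0.0224). Among 19 tested genes of nucleic acid sensing, Myd88, Tlr7, Unc93b1 and Ticam1, which belong to Toll-like receptor signalling, exceeded their WT_PBS level in KO_PBS (21.1% of the list), and Myd88, the common adaptor, was lower in KO_ASO than in KO_PBS (log2FC -0.52, adjusted P value 0.0313). At an unadjusted P value under 0.05, 8 of the 19 were higher and 0 lower in KO_PBS against WT_PBS (42.1%, against 14.3% of all genes higher), and 0 were higher and 7 lower in KO_ASO against KO_PBS (36.8%, against 10.3% of all genes lower). Of 8 tested negative regulators, Nlrc3, an inhibitor of DNA sensing, was higher in KO_PBS (log2FC 2.38, adjusted P value 0.00256), Nlrx1 and Sh2b3 were lower there (37.5% of the list in either direction), and Nlrc3 was lower in KO_ASO against KO_PBS (-1.92, adjusted P value 0.023). Of 58 other tested interferon-induced genes, 4 rose and 1 fell in KO_PBS against WT_PBS (8.62%, under the 12.6% of all genes). In KO_ASO against KO_PBS edgeR called 0 of them, 13 were higher and 5 lower at an unadjusted P value under 0.05 (22.4% and 8.62%, against 7.35% and 10.3% of all genes), and 38 (65.5%) had a log2FC above 0, against 51.9% of all genes, with a median of 0.08. The chemokine gene Cxcl10 was among the 4, at 0.0585 to 0.149 CPM in WT_PBS and 0.358 to 2.12 CPM in KO_PBS. Cxcl9, a chemokine induced mainly by interferon gamma, was the 1 gene of the same list called in the interaction, where 0.575% of all genes were (2.26, adjusted P value 0.0314), at 2.12 to 2.95 CPM in WT_PBS, 0.608 to 1.86 in WT_ASO, 1.01 to 1.88 in KO_PBS and 2.21 to 4.91 in KO_ASO.

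Markers of cell types that muscle can hold were measured beside the members, and macrophages can express many of these genes. In KO_PBS all 9 macrophage markers were raised over WT_PBS, and in KO_ASO 7 of 9 fell against KO_PBS (edgeR adjusted P value under 0.05). Their summed level was 46.2 to 74.6 CPM in WT_PBS, 47.8 to 102 in WT_ASO, 119 to 356 in KO_PBS and 48.8 to 74.9 in KO_ASO. The markers were highest in KO_PBS, where 0 members were called against WT_PBS, and lower in KO_ASO, where Ifit1, Ifit3 and Ifi44 were higher. KO_PBS replicate 4 had the highest marker sum, 356 CPM, and was also the KO_PBS sample with the highest mean of the members. The 5 endothelium markers Pecam1, Cdh5, Kdr, Tie1 and Egfl7 had the same signs as most members for the oligonucleotide within each genotype and for the interaction. Their log2FC was above 0 for 5 of 5 in KO_ASO against KO_PBS (median 0.25), for 0 of 5 in WT_ASO against WT_PBS (median -0.16) and for 5 of 5 in the interaction (median 0.43). By edgeR 0 of the 5 passed the adjusted threshold in these comparisons, where 1, 1 and 2 had an unadjusted P value under 0.05. In KO_ASO against WT_PBS 3 of 5 markers were above 0 (median 0.02), where 32 of 35 members were (median 0.33). In KO_PBS against WT_PBS 0 of 5 were (median -0.25), where 16 of 35 members were (median -0.03). In KO_ASO against WT_ASO 5 of 5 were (median 0.24), where 34 of 35 members were (median 0.37). The summed level of the endothelium markers was 359 to 509 CPM in WT_PBS, 274 to 471 in WT_ASO, 336 to 465 in KO_PBS and 443 to 486 in KO_ASO, and these ranges overlapped. The 4 fibro-adipogenic markers were above their WT_PBS level in KO_PBS, 2 of them past the threshold (Pdgfra and Dcn), and had a median log2FC of -0.74 in KO_ASO against KO_PBS, where Dcn fell. Their summed level was 413 to 517 CPM in WT_PBS and 505 to 834 in KO_PBS. Both treated groups were split by replicate, with 221, 242, 670 and 674 CPM in KO_ASO and 201, 320, 678 and 796 CPM in WT_ASO. The part of these cell types in the members' levels was not tested. In whole muscle, fewer cells of a type and less RNA per cell cannot be told apart.

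**Figure D5:**
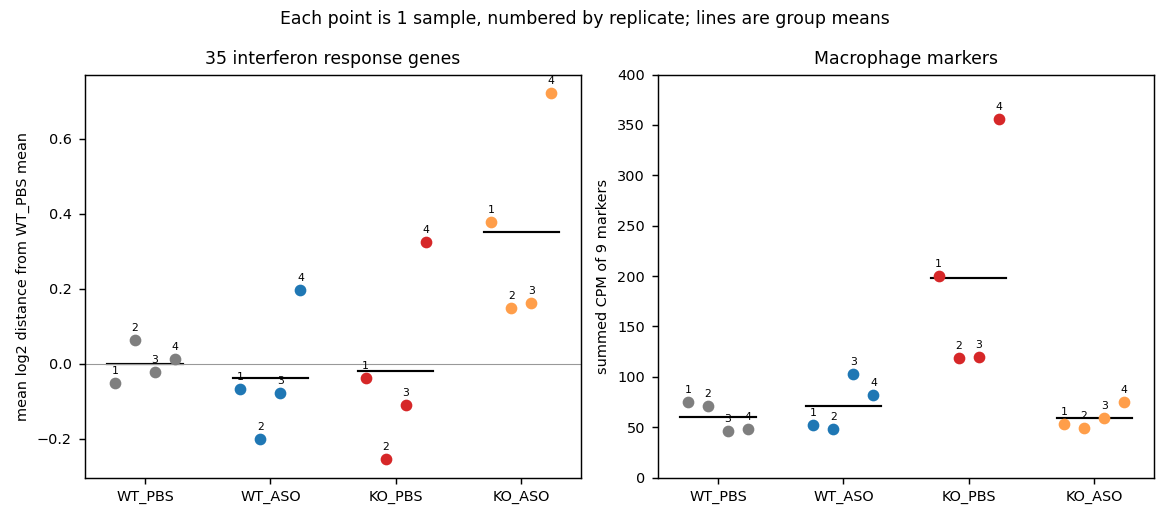
Mean log2 distance of 35 interferon response genes from the WT_PBS mean (left) and summed CPM of 9 macrophage markers (right, axis from 0) in each of the 16 samples, numbered by replicate, with group means as lines. The members are highest in KO_ASO (0.15 to 0.72) and the markers in KO_PBS (119 to 356 CPM).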

How the data were processed

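The table that the authors deposited holds raw counts for Ensembl genes, not normalized, in a column for each of the 16 samples. Tools named in the submitters' processing notes, with no role given, are HTSeq 0.6.1p1, STAR 2.5.3a, cutadapt 1.10 and Bowtie2 2.2.8, and the build is GRCm38 (mm10). The labels name a stranded kit for messenger RNA. The sources used here give neither the annotation release nor the strand setting of the counting, so reads of overlapping genes may not be told apart.

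Counts were tested with edgeR 4.0.16 (R 4.3.3): filterByExpr by group, TMM scaling, a robust quasi-likelihood fit of 1 mean per group over all 16 samples, and Benjamini-Hochberg adjustment over the 14960 genes tested. The biological coefficient of variation was 18.7%. The script was tested on simulated counts. DESeq2 1.42.0, limma 3.58.1 (voom with sample weights), other scalings, no filter, the compared groups alone, a replicate block and leaving out each sample were alternatives. CPM were computed with TMM-scaled sizes, and distances use log2 CPM with a prior count of 2. Single genes between groups were also tested by a two-sided exact permutation test, which cannot go below 0.0286 with 4 samples against 4.

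Samples are taken as separate mice, which the labels imply by replicate number alone. Within groups, the chi-square of any 2 samples averaged at least 20.4 per gene, so no library appeared to be a copy of another. Values are given per sample for members called in a comparison, the 4 of smallest P value in KO_PBS against WT_PBS, KO_ASO against KO_PBS, WT_ASO against WT_PBS and the interaction, and the most abundant per length in each role. Gbp2, Gbp3 and Bst2 were added after their values were seen. The members and lists were chosen with earlier results of these data known. A gene of the pathway lists is not reported here.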

Additional observations from a re-analysis of the deposited data

Results flagged for a closer look

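Of 144 sets of 4 samples (36 genes in 4 groups), 16 had an extreme sample farther from the others than Dixon's test allows at 95%, where chance gives about 7.2. KO_ASO replicate 4 was the high sample for 5 genes, at 9.69 CPM for Ddx58, 18.8 for Stat2, 17.5 for Irf1, 22.7 for Bst2 and 18.6 for Rsad2. KO_PBS replicate 4, which also had the highest macrophage marker sum (356 CPM), was the high sample for 5 genes, at 1.58 CPM for Zbp1, 9.42 for Irf7, 0.937 for Oas3, 0.888 for Mx1 and 9.94 for Gbp7. This sample also had the highest sum of 4 neutrophil markers, 5.60 CPM, against 0.366 to 1.82 in the other KO_PBS samples. The part of macrophages and neutrophils in the members' values was not tested. In WT_PBS the extreme values were 14.5 CPM for Dtx3l and 4.71 for Xaf1 in replicate 4, 0.223 for Oas3 and 16.02 for Irgm1 in replicate 2, and 10.9 for Rsad2 in replicate 1. In WT_ASO replicate 1 was high for Dtx3l, at 13.7 CPM.

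For Irf1, every KO_ASO sample lay above the KO_PBS mean and every WT_ASO sample lay below the WT_PBS mean. The difference of the effects was 0.62 on the log2 scale and did not pass edgeR's adjusted threshold (adjusted P value 0.246).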

How the results depend on the processing

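In the 2 comparisons with called members, 32 of 47 recounts under the alternatives stayed within 1.5 times the count reported (20 of 24 in KO_ASO against KO_PBS and 12 of 23 in the mean oligonucleotide effect), and 0 called values reversed. In the other 5, with 0 members called, 113 of 119 recounts were also 0, which says little about stability. Of 5805 member values recomputed, 240 (4.13%) changed sign, none of them called. The 3 members called in KO_ASO against KO_PBS became 6 with DESeq2 (Isg15, Ifit2 and Igtp added) and 6 with limma-voom (Isg15, Ifit2 and Irf7 added), 0 without KO_ASO libraries 1 and 4 together, and 2 to 4 when 1 sample was left out. Over all genes the calls of this comparison were 544 in edgeR, 1045 with DESeq2 and 1190 with limma-voom. They were 162 without KO_ASO libraries 1 and 4 together and 208 to 831 when 1 sample was left out. The 831 were called without KO_ASO replicate 4, where 2 members were called. The adjusted P value of Ifi44 was 0.0636 with library totals alone and 0.0681 with the compared groups alone. The 0 members of KO_PBS against WT_PBS became 1 with library totals alone and with the compared groups alone (Ifitm3), 1 with limma-voom (Gbp7), and 0 to 1 when 1 sample was left out, with 2202, 2064 and 2699 genes called in all in the first 3 of these fits, against 1878. When 1 sample was left out, 997 to 2137 genes were called in all. In KO_ASO against WT_PBS and against WT_ASO the 0 became 2 with DESeq2, where the calls over all genes went from 6 to 87 and from 11 to 402. The 1 member of the mean oligonucleotide effect became 2 with DESeq2's size factors, 2 with DESeq2, 3 with limma-voom, 2 without a filter, 0 without KO_ASO libraries 1 and 4 and 0 to 3 when 1 sample was left out. Over all genes the calls of the mean effect were 63 in edgeR and with DESeq2's size factors, 365 with DESeq2, 100 with limma-voom, 68 without a filter and 37 without KO_ASO libraries 1 and 4. They were 24 to 149 when 1 sample was left out. The cause of these differences was not tested.

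The labels' replicate numbers were not taken to pair the samples: deviations of 24 same-numbered pairs had a median correlation of 0.075 (from -0.078 to 0.435), 11 of them above 0.1, against a median of -0.027 for the 72 other pairs. Of 16 samples, 13 had their highest mean correlation with the samples of their own number, a hint from the data and not from the design. With the replicate number as a block, 5 members were called in KO_ASO against KO_PBS (Isg15 and Ifit2 added) and 2 in the mean oligonucleotide effect, and 752 and 106 genes in all against 544 and 63. With the block no other count of called members moved. Members such as Mx1, Zbp1 and Oas3 were limited by depth, with counts as low as 2 for Zbp1 and 0 for Oas3.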
